A study of Mus musculus with 2 samples.

Results

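Chemokines and their receptors were examined in ureters of mouse embryos at E18.5 that lacked PPARG function in the ureteric epithelium. The genes were taken by name from an oligonucleotide array, as every symbol starting with Ccl, Cxcl, Ccr or Cxcr and a digit, Ccrl and a digit, or Cx3c. The rule gave 53 genes of 29923 on the array, 34 ligands and 19 receptors, measured by 70 of 39429 probes. Each of 2 arrays held RNA from a pool of Pparg-cKO ureters in one dye and from a pool of control ureters in the other. Pparg-cKO embryos were Pax2-cre/+; Pparg(fl/fl), and control embryos were Pparg(fl/?). Per the study's methods the controls were littermates without Cre, from floxed mothers and heterozygous fathers, so they also carried a floxed allele beside a floxed or wild-type one. All embryos were of the NMRI strain, with female pools in replicate 1, male pools in replicate 2 and the opposite dye orientation. Sex, dye orientation and array therefore cannot be told apart. The Pax2-cre transgene is active in the nephric duct, the ureteric epithelium and the collecting ducts, whereas the pools held whole ureters with mesenchyme, vessels, nerves and blood. A pool gives 1 value, so p-values measure the spread between 2 pairs of pools and not between embryos.

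Chemokines are small secreted proteins that guide migrating cells through membrane receptors coupled to inhibitory G proteins. They are grouped by the spacing of their first cysteines into CC, CXC and CX3C ligands. Inflammatory chemokines are induced by cytokines and bring in monocytes, neutrophils and lymphocytes, and homeostatic ones place cells in tissues during development and in lymphoid organs. PPARG is known as a nuclear receptor that activates genes together with RXR and can also restrain inflammatory gene expression.

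Upstream sequences are shown for Cx3cl1 and Ccl6, which with Ccl11 had the largest mean ratios between genotypes. They are the 250 bases before the annotated start, from RefSeq (GRCm38.p6), 5′ to 3′ on the strand of the gene. Capitals mark matches to the motifs searched on both strands, which were TATAAA (the core of a TATA box), AGGTCA (the half-site bound by many nuclear receptors, PPARG with RXR included), GAAANNGAAA (a core of interferon response elements) and the NF-kappaB consensus. The Cx3cl1 window lies at chr8:94771930-94772179 on the plus strand and the Ccl6 window at chr11:83593088-83593337 on the minus strand.
Cx3cl1: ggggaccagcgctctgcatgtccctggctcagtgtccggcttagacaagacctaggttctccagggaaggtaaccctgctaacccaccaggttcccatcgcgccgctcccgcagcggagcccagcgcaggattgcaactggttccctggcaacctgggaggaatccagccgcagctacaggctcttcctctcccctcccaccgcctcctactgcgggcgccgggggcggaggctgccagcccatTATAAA
Ccl6: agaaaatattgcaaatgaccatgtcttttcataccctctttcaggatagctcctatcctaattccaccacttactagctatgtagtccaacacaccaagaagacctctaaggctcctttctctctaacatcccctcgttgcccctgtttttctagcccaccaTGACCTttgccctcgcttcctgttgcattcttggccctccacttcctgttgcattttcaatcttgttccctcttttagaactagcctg
The Cx3cl1 window ended in a TATAAA match and held no other match, and the Ccl6 window held an AGGTCA half-site on the opposite strand. RefSeq windows were matched for 38 of the 53 genes, 44 windows in all, and Ccl11 was not among them. TATAAA was found in 11 of the 44 windows (25%) and in 12.4% of all 32851 windows. AGGTCA was found in 12 of the 44 (27.3%) and in 14% of all windows. The NF-kappaB consensus was found in 11 of the 44 (25%) and in 7.25% of all windows, and GAAANNGAAA in 3 of the 44 (6.82%) and in 2.98% of all windows. The 3 genes with the interferon element core were Ccl19, Cxcl10 and Cxcl14. Matches of different motifs were counted separately, also where they overlapped, and a match is a description of letters and not a binding site.

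A probe was called well above background in a pool where a share of at least 0.5 of its kept spots were, and 35 of the 53 genes were so in all 4 pools, 23 ligands and 12 receptors, beside 19571 of the 29923 genes on the array. No pool gave a signal well above background for 10 genes, namely Ccl8, Ccl20, Ccl22, Ccl26, Cxcl2, Cxcl3, Cxcl15, Cxcl17, Cxcr2 and Cxcr5. These include Cxcl2 and Cxcl3, which attract neutrophils, their receptor Cxcr2, and Cxcr5, the follicular B cell receptor. Another 6 genes, Ccl1, Ccl17, Ccr6, Ccr8, Ccr9 and Ccr10, were well above background only in the green channel, which was a different genotype on each array, so their detection followed the dye. Cxcl14 and Cxcr1 had other patterns. No gene of the family was well above background in both pools of 1 genotype and in neither pool of the other. The tests took in 42 genes, 26 ligands and 16 receptors, whose probe was well above background in some channel on each array.

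The direction of every ratio below is that of the deposited table, which the study also gives for its changed genes in text and tissue sections. The dye labels name the opposite channels on both arrays. If they are right as written, each higher and lower below is exchanged, while sizes and p-values stay. The targeted gene gave no check of the genotype, because the place of its probe relative to the deleted exons was not determined here. Pparg had processed signals of 6113 in the control and 12360 in the Pparg-cKO pool in the female pair, and of 6688 and 12930 in the male pair, a mean log2 ratio of 0.97 (limma, adjusted p = 0.0373). A signal here is the background-subtracted, dye-normalised brightness in arbitrary units, and a log2 ratio is Pparg-cKO over control after separate normalisation of the mean signals.

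No chemokine or receptor gene passed either rule for a changed gene. In RNA of whole ureters, fewer cells of a type and less RNA per cell cannot be told apart. The fold rule asked each array for a 1.5-fold ratio of the same sign, and for a brighter channel at 100 signal units or more. It was passed by 0 of the 15 members bright enough, against 258 of 14015 genes on the array (1.84%). The limma test at an adjusted p of 0.05 called 0 of the 42 tested members, against 169 of 22499 genes (0.751%), and the smallest adjusted p among members was 0.283, for Cx3cl1. An unadjusted p under 0.05 was reached by 5 members (11.9%), against 8.51% of all genes. Among these, Cx3cl1, Ccl6 and Cx3cr1 were on the higher side and Ccl11 on the lower side.

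On both arrays, 21 of the 42 tested members (50%) were higher in the Pparg-cKO pool, against 26.6% of all genes, and 7 (16.7%) were lower, against 26.2%. The other 14 had opposite signs. Counted on the processed signals, both Pparg-cKO pools lay above both control pools for 13 members and below both for 7, together 47.6% of the tested members, against 34.6% of all genes. This count compares signals between arrays and leaves out the pairing within an array. It includes Ccl17 and Ccr6, well above background only in the green channel, and Ccl4 and Ccl27a, whose paired log2 ratios had opposite signs. The median of the mean log2 ratios was 0.058 over the members and 0.009 over all genes. It was 0.070 for the ligands and 0.017 for the receptors. Over the members it was 0.050 in females and 0.056 in males. The split between higher and lower differed between ways of processing, which change the background correction, the normalisation or both. By the deposited values 31% of members were higher and 21.4% lower on both arrays, with the scanner-processed signals 35.7% and 26.2%, and with median centring 35.7% and 14.3%. Among the 35 members well above background in all pools, 16 were higher and 7 lower on both arrays, but 12 and 11 (34.3% and 31.4%) with the scanner-processed signals. Among all genes these alternatives gave 24.6% to 25.9% higher and 17.6% to 27.7% lower.

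**Figure D1:**
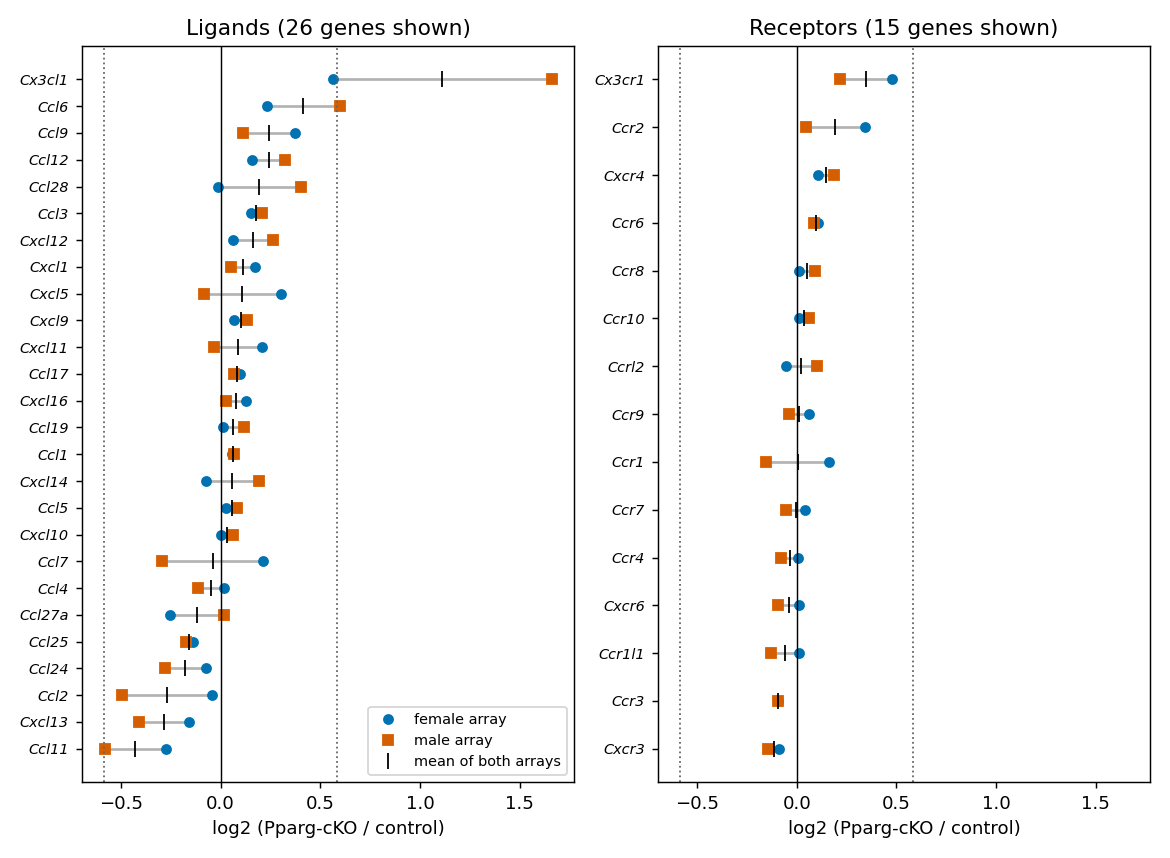
Log2 ratio of Pparg-cKO over control on the female array (circles) and the male array (squares) for the 26 tested ligands and 15 of the 16 tested receptors, with the mean as a black tick and dotted lines at 1.5-fold. Cx3cl1 stands to the right at 0.56 and 1.66, and the other genes shown lie between -0.58 and 0.60 on either array.

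**Figure D2:**
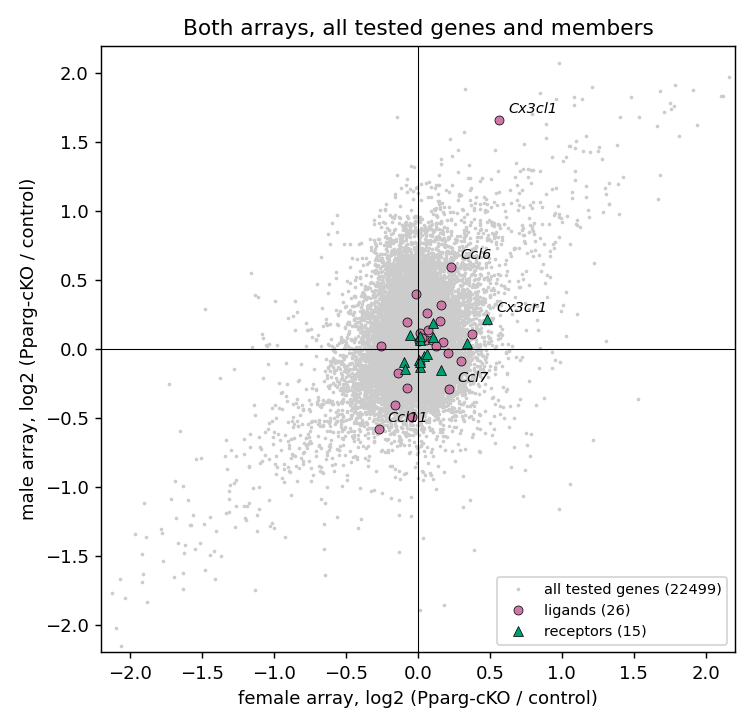
Log2 ratio on the male array (vertical) against the female array (horizontal) for all 22499 tested genes in grey, with 26 ligands as circles and 15 receptors as triangles; 38 genes lie outside the axes at 2.2. Apart from Cx3cl1, the members shown lie within the main cloud of genes around 0.

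Cx3cl1 encodes fractalkine, which is made as a membrane-bound adhesion molecule on epithelial, endothelial and neural cells and is shed as a soluble attractant. Its processed signal was 62.5 in the control and 104.8 in the Pparg-cKO pool in the female pair, and 73.7 and 274.1 in the male pair. Both Pparg-cKO pools lay above both control pools, and the control pools were close to each other whereas the Pparg-cKO pools were not. The ratio was 1.48-fold on the female array (log2 0.56, SD 0.118 over 4 spots) and 3.16-fold on the male array (log2 1.66, SD 0.140 over 3 spots). The mean log2 ratio was 1.11 ± 0.776 (SD, n = 2), which is 2.16-fold, with a 95% interval of 0.43 to 1.80 from limma and an adjusted p of 0.283. A mean of this size or larger was found for 159 of the 22499 genes, and 685 had a p as small or smaller. The probe lies at chr8:97306185-97306244 on mouse build mm9.

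The female array lay just under 1.5-fold, with a signal of its brighter channel just over 100, and whether Cx3cl1 counted as changed depended on the background correction. Without the offset of normexp, the ratios were 1.58-fold and 3.49-fold, and the gene passed both rules (limma, adjusted p = 0.0112), in a fit that called 571 genes on the whole array in place of 169. With the scanner-processed signals they were 1.67-fold and 3.72-fold, and in the table deposited by the authors 1.67-fold and 3.60-fold. Both of these passed the fold rule, with adjusted p of 0.274 and 0.574 in limma, which called 0 genes of the whole array on the deposited values. Under median centring the female array gave 1.43-fold and the male array 3.76-fold. The male array was past 3-fold and above the female array under each of these ways of processing.

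**Figure D3:**
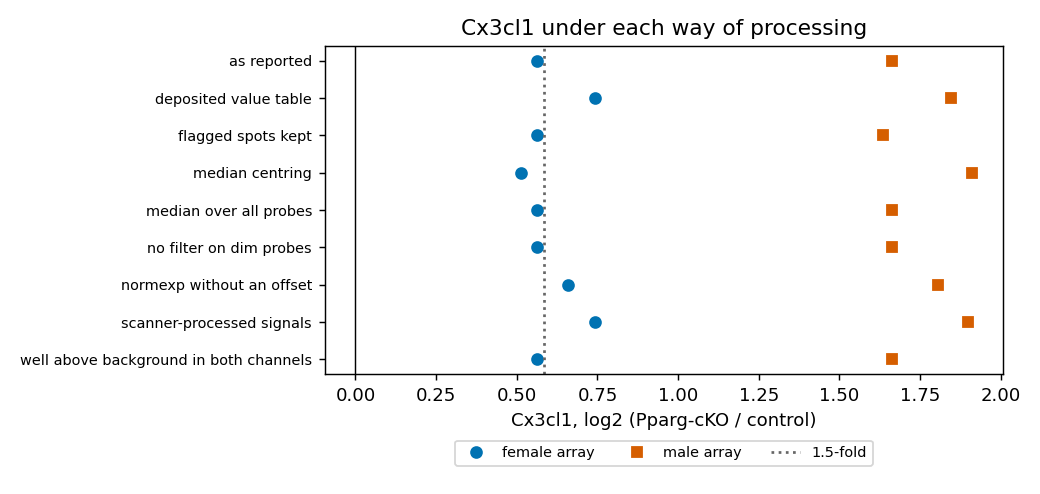
Log2 ratio of Cx3cl1 on the female array (circles) and the male array (squares) under each way of processing, with a dotted line at 1.5-fold. The female values lie between 0.51 and 0.74 on both sides of the line, and the male values lie between 1.63 and 1.91.

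Cx3cr1 is the receptor of fractalkine and is carried by monocytes and tissue macrophages. Its signal was 348.6 in the control and 483.2 in the Pparg-cKO pool in the female pair, and 393.8 and 453.4 in the male pair. Both Pparg-cKO pools were above both control pools, by a narrower margin in males. The log2 ratios of 0.48 and 0.22 had a mean of 0.35 ± 0.185 (SD, n = 2), for which limma gave an adjusted p of 0.509. The 2 dimmer probes of the gene gave 0.36 and 0.30, and 0.23 and -0.02, so the third probe was flat in males. Adam10 and Adam17, the proteases that release fractalkine from the membrane, had mean log2 ratios of 0.09 and -0.25 with adjusted p of 0.917 and 0.686.

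The inflammatory CC ligands held the largest ratios after Cx3cl1, in both directions. Of 16 such ligands 12 were tested, with a median of 0.060. On both arrays 7 (58.33%) were higher and 3 (25%) lower, against 26.6% and 26.2% of all genes. The higher ones include Ccl1 and Ccl17, which were well above background only in the green channel. Ccl6 and Ccl9, macrophage-derived ligands of Ccr1, were among the higher ones. Ccl6 had a signal of 141.9 in the control and 190.7 in the Pparg-cKO pool in the female pair, and 156 and 235.5 in the male pair. Its pools did not overlap between genotypes, and its log2 ratios were 0.23 and 0.60, a mean of 0.41 ± 0.259 (SD, n = 2), for which limma gave an adjusted p of 0.467. Ccl9 went from 151.7 to 206 in females and from 170 to 181.8 in males, so that both Pparg-cKO pools were again above both controls, with a mean log2 ratio of 0.24 (limma, adjusted p = 0.685). Ccl12, a monocyte attractant that acts on Ccr2, had signals of 119 and 137.1 in females and 115.9 and 140 in males. Its control pools were nearly equal, as were its Pparg-cKO pools, and its mean log2 ratio was 0.24 ± 0.116 (SD, n = 2), for which limma gave an adjusted p of 0.657.

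Ccl11 encodes eotaxin, which attracts eosinophils through Ccr3. Its signal was 375.7 in the control and 303.2 in the Pparg-cKO pool in the female pair, and 421.1 and 270.1 in the male pair. Both Pparg-cKO pools lay below both controls. The log2 ratios of -0.27 and -0.58 had a mean of -0.43 ± 0.218 (SD, n = 2), for which limma gave an adjusted p of 0.405. Ccl24, a further eotaxin, had a mean of -0.18 and an adjusted p of 0.768, and their receptor Ccr3 had -0.10 on each array, at signals between 11.6 and 15.4 in the 4 pools. Ccl26, the other eotaxin, was not well above background in any pool. These genes were set side by side after their values were seen, and none passed a rule.

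Ccl2, the main monocyte attractant, had signals of 193.3 and 187.1 for female control and Pparg-cKO RNA and of 218 and 155 for male RNA. The female pools were almost level, and the log2 ratios were -0.04 and -0.50 with an adjusted p of 0.721. Ccl12 and Ccl2 act on the same receptor, Ccr2, and had mean ratios of opposite sign. Ccl7, a further Ccr2 ligand, was higher in females (113.3 to 130.1, log2 0.21) and lower in males (124.6 to 94.4, log2 -0.29), a gap that was not tested. Ccl3, Ccl4 and Ccl5, which attract monocytes and T cells, had mean log2 ratios of 0.18, -0.05 and 0.06. Ccl20, the ligand of Ccr6 made by inflamed epithelia, was not well above background in any pool.

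**Figure D4:**
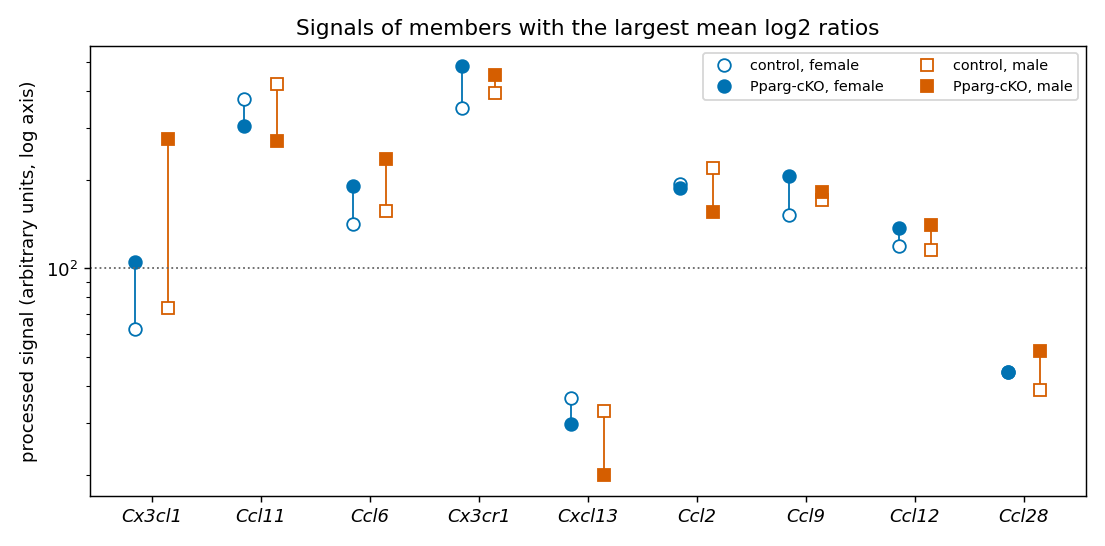
Processed signal on a log axis in the control pools (open) and Pparg-cKO pools (filled) of the female (circles) and male (squares) arrays for 9 of the 10 tested genes with the largest mean ratio; lines join the pools of an array, and the dotted line marks a signal of 100. The pools of the genotypes do not overlap for any gene shown, although the female pools of Ccl28 are nearly equal. The genes were picked by their ratios in these same pools, so the separation is no separate evidence. Of all tested genes 34.6% had no overlap.

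The homeostatic CC ligands had small ratios. Ccl28, a mucosal epithelial ligand of Ccr10, had a signal of 44.55 in the female control and 44.6 in the female Pparg-cKO pool, and 38.9 (control) and 52.5 (Pparg-cKO) in males. Its log2 ratio was -0.01 in females and 0.40 in males. Its mean was 0.19 ± 0.293 (SD, n = 2), for which limma gave an adjusted p of 0.800. Ccl25, the ligand of Ccr9 known from thymus and gut epithelium, was lower on both arrays, from 160.1 to 146.5 and from 206.4 to 180.1, at log2 -0.14 and -0.17 and an adjusted p of 0.782. Ccl19, which guides Ccr7-bearing dendritic cells and T cells, had 82.7 and 83.7 in females and 79.6 and 87 in males, a mean log2 ratio of 0.06. Ccl21a and Ccl21b, the other Ccr7 ligands, share near-identical gene copies and are read by probes named for Gm1987 and Gm13304, which had mean log2 ratios of -0.10 and 0.05. Ccl27a, an epithelial ligand of Ccr10, had log2 ratios of -0.25 and 0.02. Its brightest probe also matches transcripts of Ccl27b and other copies, so the value is uncertain as to the copy.

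Of the 13 CXC ligands 9 were tested. Cxcl12, the developmental chemokine that guides vessels, nerves and progenitor cells through Cxcr4, had signals of 2716 and 2751 in the female control and Pparg-cKO pools, and 2755 and 3242 in the male ones. The mean log2 ratio was 0.16 ± 0.140 (SD, n = 2) and limma gave an adjusted p of 0.793. A second probe of Cxcl12, which matches other transcript variants, gave -0.37 in females and 0.39 in males, so the probes disagreed on the female array. Cxcr4 had 49.9 and 58.1 in females and 53.1 and 63.3 in males, with a mean log2 ratio of 0.15 (limma, adjusted p = 0.800). Ackr3, listed as Cxcr7 in older annotation, is the scavenger receptor for Cxcl12 and had log2 ratios of 0.06 and -0.08. No gene of the Cxcl12 axis passed a rule.

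Cxcl13, the B cell attractant, was lower on both arrays, with signals of 36.4 and 29.8 in females and 32.8 and 20.0 in males. The pools did not overlap, the mean log2 ratio was -0.28 ± 0.177 (SD, n = 2), and limma gave an adjusted p of 0.622. Cxcl16, a transmembrane ligand of Cxcr6, had a mean of 0.08, and Cxcr6 had -0.04. Cxcl14, an epithelial chemokine whose receptor is debated, had signals of 9.97 and 8.26 in females and 12.1 and 16.4 in males, a mean log2 ratio of 0.06. The interferon-induced ligands of Cxcr3, Cxcl9, Cxcl10 and Cxcl11, had means of 0.10, 0.03 and 0.09, and Cxcr3, carried by T and NK cells, had -0.12. The Cxcl11 value is uncertain, because it is from the brighter of 2 probes with very different signals, and the dimmer one had a mean of -0.02. The neutrophil attractants Cxcl1 and Cxcl5 had means of 0.11 and 0.11, and Cxcl5 had 0.30 in females and -0.08 in males.

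Among the 16 tested receptors, 7 (43.75%) were higher and 2 (12.5%) lower on both arrays, against 26.6% and 26.2% of all genes. The higher ones include Ccr6, Ccr8 and Ccr10, which were well above background only in the green channel. Ccr2, the receptor of inflammatory monocytes, had 38.3 and 54.9 in females and 36.8 and 34.5 in males. Its log2 ratio was 0.34 in females and 0.05 in males (limma, adjusted p = 0.766), while the male processed signals gave -0.09, so the sign of the male value differed between the measures. Ccr1, with 10.8 and 14.5 in females and 12.5 and 10.01 in males, had opposite signs. Ccr7 had log2 ratios of 0.04 and -0.05. Cxcr3 and Ccr3 were the receptors lower on both arrays. Ccr6, Ccr9 and Ccr10, whose detection followed the dye, had means of 0.10, 0.01 and 0.04.

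The wider pathway outside the name rule was likewise without a call, with 0 genes past the fold rule and 0 called by limma in each of 5 lists. The genes named from these lists were chosen after their values were seen. Of 5 tested receptors outside the rule (Ackr1, Ackr2, Ackr3, Ackr4 and Pitpnm3) 2 were higher on both arrays and 0 lower. Of 4 tested ligands outside it (Pf4, Ppbp, Cklf and Mif) 0 were higher and 3 lower, with a median of -0.171. Ppbp, a platelet chemokine precursor, had signals of 40.8 and 28.3 in females and 51.7 and 24.8 in males, a mean log2 ratio of -0.50 (limma, adjusted p = 0.300). Its pools did not overlap. Pf4, which is made by platelets and macrophages, was close to level at a mean of 0.03.

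Of 16 signalling genes below the receptors, 5 were higher and 1 lower on both arrays. Their median of 0.149 rested on the male array, since it was -0.015 in females and 0.178 in males. Rgs16, which ends G protein signals, had signals of 60.7 and 88.1 in females and 80.3 and 115.5 in males, with a mean log2 ratio of 0.45 (limma, adjusted p = 0.259). Pik3cg, the leukocyte PI3 kinase driven by chemokine receptors, had a mean of 0.37 and an adjusted p of 0.385. Rgs2 was lower on both arrays, at a mean of -0.30. Of 10 genes that process or present chemokines, 3 were higher and 2 lower, with a median of -0.035 in females and 0.081 in males, and Sdc4, a heparan sulphate carrier, was at 0.09 in females and 0.80 in males. Of 11 tested genes that induce chemokines or report their induction, 5 were higher and 1 lower. Their median was 0.099, with 0.052 in females and 0.129 in males, and it was 0.173 to 0.188 with the scanner-processed signals, the deposited values or median centring. The cytokine genes Il1a, Il17a, Il17c and Ifng were not well above background in any pool, and Nfkbia and Tnfaip3, which report NF-kappaB activity, had means of 0.16 and 0.10.

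Several of the genes above are carried mainly by macrophages, so marker genes of cell types were set beside them. All 10 macrophage markers and all 6 general leukocyte markers were well above background in all 4 pools. Of the macrophage markers 5 were higher and 2 lower on both arrays, with a median log2 ratio of 0.095 in females and 0.062 in males. Their summed signal was 9049 in the control and 9745 in the Pparg-cKO pool in the female pair, and 8473 and 8589 in the male pair. Of the general leukocyte markers 3 were higher and 0 lower, with summed signals of 3586 and 3960 in females and 3324 and 3203 in males. Of the general markers Cd52 (0.51 and 0.21, mean 0.36) and Laptm5 (0.22 and 0.48, mean 0.35) had ratios about as large as Cx3cr1, whereas Ptprc, Fcer1g, Coro1a and Tyrobp had means of 0.15, 0.07, 0.01 and 0.01. The macrophage markers higher on both arrays were Cd68, Mrc1, C1qa, C1qb and C1qc, with means between 0.08 and 0.21. Adgre1, which encodes the macrophage antigen F4/80, was at -0.08 and -0.07, and Csf1r at -0.04 and 0.14. The part of these cells in the ratios of Cx3cr1 and Ccl6 was not tested.

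Of 8 neutrophil markers 2 were higher and 3 lower on both arrays, and the list's median was 0.102 in females and -0.345 in males. S100a8 and S100a9 were at 0.13 and 0.00 in females and at -0.63 and -0.72 in males. Of the lymphocyte markers, Cd3d, Cd3g and Ms4a1 were not well above background in any pool, and neither were Itgax of dendritic cells and Ncr1 of NK cells. In the same lists, Cd3e, Cd4 and Lck of T cells and Cd79a and Cd79b of B cells were well above background in all 4 pools. So were Flt3 and Zbtb46 of dendritic cells and Nkg7 and Gzma of NK cells. The remaining markers of these lists were so in some pools only. Of 4 tested T cell markers 0 were higher and 1 lower on both arrays, and of 4 tested mast cell markers 1 was higher and 0 lower. Of 5 endothelial markers 4 were higher on both arrays and 0 lower, with a median of 0.055 in females and 0.230 in males. Cdh5 was at 0.18 and 0.52, Pecam1 at 0.21 and 0.05, Kdr at 0.02 and 0.23, Tie1 at 0.06 and 0.30 and Tek at -0.10 and 0.01. The part of these cells in the Cx3cl1 ratios was not tested. The urothelial, smooth muscle and lamina propria markers that define the ureter were well above background in all pools, 7 of 7, 5 of 5 and 4 of 4. Of the urothelial markers 2 were higher and 4 lower on both arrays, with a median of -0.526 in females and -0.170 in males. The lower ones were the uroplakin genes Upk1b, Upk2 and Upk3a and the basal cell factor Trp63. Upk1b, at -1.30 and -0.73 (limma, adjusted p = 0.11), passed the fold rule, Trp63 was at -0.53 and -0.44 (limma, adjusted p = 0.233), and Upk2 and Upk3a had means of -0.51 and -0.24. Krt5, a basal cell keratin, had opposite signs, at -0.86 and 0.35. The higher ones were the epithelial adhesion genes Epcam, at 0.41 and 0.47 (limma, adjusted p = 0.273), and Cdh1, at 0.07 and 1.10 (limma, adjusted p = 0.642). Cdh1, like Cx3cl1, had the larger ratio on the male array, whereas Epcam had similar ratios on both arrays and the 4 lower markers went the other way. A larger male ratio was also found outside the urothelial markers, as for Mmp14 of the processing list, at -0.145 and 1.264. Cdh1 and Mmp14 were picked after their values were seen. The part of epithelial content in the Cx3cl1 ratio was not tested.

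**Figure D5:**
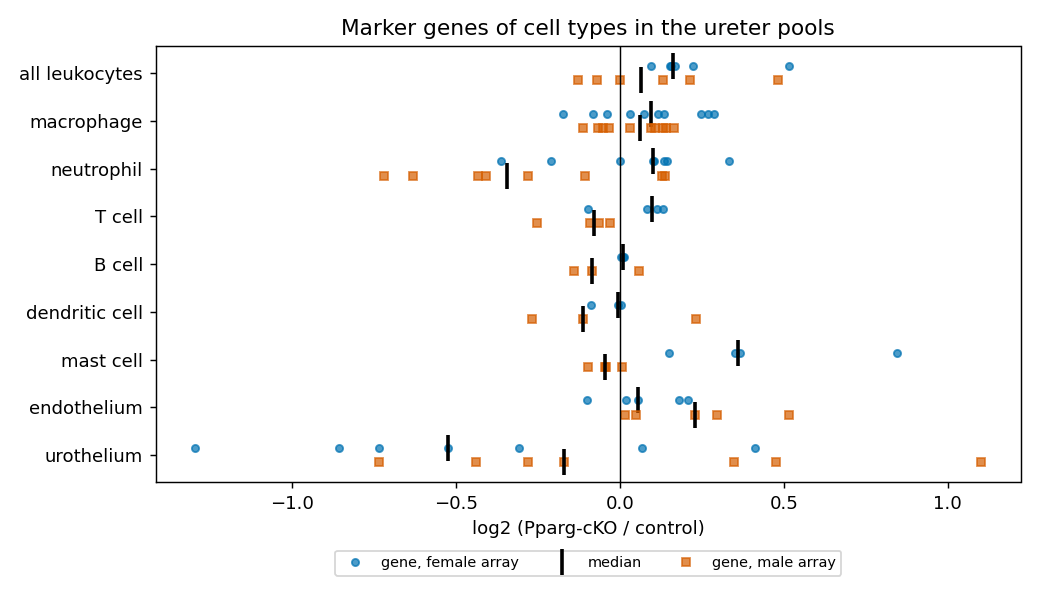
Log2 ratio of Pparg-cKO over control for the tested marker genes of each cell type, on the female array (circles) and the male array (squares), with black ticks at each list's median. The macrophage medians are 0.095 and 0.062, the neutrophil medians 0.102 and -0.345, and the urothelial genes spread the most.

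Several genes had more than 1 probe, 12 in all, so that ratios of the same gene could be set side by side. The probes of Cxcl11 were read at signals between 24090 and 26640 for the brighter and between 676.3 and 791.6 for the dimmer, while the log2 ratios were 0.21 and -0.03 for the brighter and 0.14 and -0.18 for the dimmer. Both match the same RefSeq transcript. For Ccl27a, the 3 probes gave -0.25, -0.36 and -0.17 in females and 0.02, -0.06 and -0.39 in males. The 3 probes of Ccl19 lay between 0.01 and 0.11 in females and between -0.03 and 0.13 in males. The number of arrays limited the precision throughout: limma had 1 residual degree of freedom per gene beside a prior worth 4.004.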

How the data were processed

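Pooled ureter RNA was hybridised to 2 two-colour Agilent arrays with the dyes exchanged. Per the file headers, the scanner files hold spot intensity on a linear scale and processed signals corrected by the scanner software (Agilent Feature Extraction 10.7.3.1, per the submitters' processing notes). The authors' deposited value table holds a signed fold change, a linear ratio, per probe and array; it served as an alternative. The same scanner files hold, per the file headers, the log10 ratio of red over green processed signals, which was read but not tested. Across probes the table correlated with the normalised red over green log2 ratios at r = 0.905 on replicate 1 and -0.932 on replicate 2, which set the direction used here, against the dye labels.

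Outlier-flagged spots (2.87% and 3.24%) were left out, and 0 spots were saturated. Spots well above background made up 76.8% and 77.3% of the green and 66.2% and 67.6% of the red channel. The mean signals were corrected with normexp (offset 50) and loess in limma 3.58.1 under R 4.3.3, up to 4 spots were averaged per probe, and the brightest probe stood for its gene. The mean of the turned log2 ratios was tested two-sided with empirical Bayes moderation and Benjamini-Hochberg adjustment over 22499 genes, and the procedure was tested on simulated data. The fold rule follows the study's thresholds. RefSeq transcripts matched 52 of the 53 genes. Members, lists and named genes (those past a rule, the 10 largest mean ratios and fixed ligand-receptor sets) were chosen with earlier results of these data known. Alternatives were other background corrections, centring, filters, probe summaries and leaving out an array. A member gene is counted in the totals but not reported here by name.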

Additional observations from a re-analysis of the deposited data

Results flagged for a closer look

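The Cxcl12 probe of transcript NM_001012477 was lower in the Pparg-cKO pool on the female array, at log2 -0.37, and higher on the male array, at 0.39. The male value minus the female value was 0.764. With a single pair of pools of each sex, this difference between sexes was not tested, and sex, dye orientation and array cannot be told apart.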

How the results depend on the processing

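The number of members past the fold rule was 0, and it was 1 (Cx3cl1) with normexp without an offset, with the scanner-processed signals and in the deposited table. Leaving out each array in turn gave 0 to 2 (Ccl6 and Cx3cl1 without the female array), where 1253 genes of the whole array passed without the female and 444 without the male array, against 258 with both. The number called by limma was 0, and 1 (Cx3cl1) without an offset, where limma called 571 genes of the whole array against 169. The ligand median of 0.070 became 0.061 with no filter on dim probes or with the median over probes, 0.076 with signal required in both channels, 0.107 without an offset, 0.108 with the scanner-processed signals, 0.062 with median centring, 0.079 in the deposited table and 0.060 to 0.064 without 1 array. The receptor median of 0.017 became -0.001 with signal in both channels, with median centring or with the median over probes, 0.037 without an offset, 0.000 in the deposited table and 0.005 to 0.028 without 1 array; the cause was not tested. Among 26 named genes, 21 did not change sign under the 6 alternatives that used both arrays, although Ccr6 was at 0.000 in the deposited table. The others were Ackr3 (0.021 with median centring), Cxcr6 (0.080 in the deposited table), Ccr7 (0.001 without an offset), Ccr9 (-0.027 with median centring and -0.072 with the median over probes) and Ccr10 (-0.005 with median centring). Leaving out the male array also turned Ccl28 (-0.013) and Cxcl14 (-0.075), with Ackr3 (0.060), Ccr7 (0.043) and Cxcr6 (0.012), and leaving out the female array turned Ccr9 (-0.037). Of 178 recomputed list medians 22 moved by more than the spread between arrays. The ratio within an array is itself the paired comparison of a Pparg-cKO pool with its control, and no fit without that pairing was run. Dim genes have compressed ratios with the offset, and 2 arrays limit every interval.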
